A study of Rattus norvegicus with 6 samples.

Results

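The collagen genes of the rat colon were read by 25 probes of the array, which were those whose accession maps to a RefSeq gene with a collagen chain symbol, of 30367 probes in all. They belong to 18 genes. Of these probes, 23 exceeded background clearly on 3 or more of the 6 arrays (well above background, by the flag of the scanner software) and were kept, and they still cover all 18 genes. Fibrillar chains gave 9 probes of 7 genes, basement membrane chains gave 5 probes of 4 genes, and the other collagens gave 9 probes of 7 genes. RefSeq lists 44 collagen genes of this kind in the rat. The other 26, among them Col4a2, Col5a2, Col6a1, Col6a3, Col12a1, Col15a1 and Col17a1, had no probe matched by accession and were not analysed here. The probes that were not kept were 1 of the probes of Col23a1 and 1 of those of Col9a1, each well above background on 1 S array only.

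Colon RNA came from 3 male S.LEW(10)x12x2x3x5 congenic rats (S.LEW congenic, C1, C2 and C3) and 3 male S rats (S1, S2 and S3), each hybridized to its own Agilent array in a single color. The S rat is the inbred Dahl salt-sensitive strain, and its congenic partner has a short piece of Lewis chromosome 10 in that same genome, so that both strains share nearly the whole genome. All 6 rats ate a low-salt diet with 0.3% NaCl, received the colon carcinogen azoxymethane (AOM) in 2 injections of 15 mg per kg starting at 6 weeks of age, and were killed at 30 weeks of age, so no rat without AOM entered the comparison. Each cage held an S rat and a congenic rat, and whether the RNA included tumor tissue is not stated in the sources used here.

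A collagen is a protein of chains that wind around each other in a triple helix. Fibrillar collagens assemble into the fibers that give the submucosa and muscle layers of the gut their strength, type IV collagen forms the sheet-like network of basement membranes under epithelium and around muscle cells and vessels, and smaller families link fibrils, form beaded filaments or span the cell membrane. In the gut wall fibroblasts and smooth muscle cells are known as the main makers of fibrillar collagen.

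The sequences before 4 transcription starts are shown because their genes carry the main results, namely the pair of genes that passed the cut-offs and a fibrillar and a basement membrane chain at which the S rats lay far apart, chosen after their values were seen. They come from RefSeq on GRCr8 and are read 5′ to 3′ on the strand of the gene. Capitals mark GGGCGG, the core of the GC box, or TATAAA, the TATA box, on either strand. Each runs for the 250 bases before the start, except for Col4a1, where only the 76 bases between its start and the start of its head-to-head neighbor Col4a2 are given.
Col23a1, chr10:36050077-36050326, plus strand: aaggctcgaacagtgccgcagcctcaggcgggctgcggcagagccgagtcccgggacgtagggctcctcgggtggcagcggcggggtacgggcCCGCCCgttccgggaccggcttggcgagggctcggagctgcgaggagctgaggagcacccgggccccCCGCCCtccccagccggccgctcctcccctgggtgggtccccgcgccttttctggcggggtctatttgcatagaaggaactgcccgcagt
Col13a1, chr20:30466801-30467050, minus strand: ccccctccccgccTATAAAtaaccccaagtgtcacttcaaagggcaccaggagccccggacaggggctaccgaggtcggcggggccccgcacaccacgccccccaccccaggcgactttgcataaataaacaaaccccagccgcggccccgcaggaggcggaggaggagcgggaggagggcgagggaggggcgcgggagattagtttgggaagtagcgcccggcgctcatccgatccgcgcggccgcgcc
Col5a1, chr3:31606630-31606879, plus strand: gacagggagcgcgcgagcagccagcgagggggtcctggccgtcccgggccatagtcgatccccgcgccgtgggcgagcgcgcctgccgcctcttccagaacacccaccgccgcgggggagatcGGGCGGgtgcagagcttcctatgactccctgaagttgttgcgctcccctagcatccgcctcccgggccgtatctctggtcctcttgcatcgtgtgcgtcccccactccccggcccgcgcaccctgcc
Col4a1, chr16:84885521-84885596, plus strand: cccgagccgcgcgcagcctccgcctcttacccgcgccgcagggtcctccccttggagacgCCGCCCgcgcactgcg
Among the 13 collagen genes with a promoter in the table, GGGCGG or its reverse complement CCGCCC occurred within 250 bases of the start in 8, against 30.5% of all 33469 promoters. TATAAA or TTTATA occurred in 2 (12.9% of all), and CCAAT or ATTGG in 3 (34.0% of all). A match is a description of the letters only. Col23a1 lies on the chromosome that carries the Lewis segment, 32.3 Mb from Rffl in GRCr8. The paper names Rffl as the only protein-coding gene of that segment and calls the case for it as a candidate weak. Col23a1 therefore lies outside the segment.

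The values are log2 signals from the authors' table of 23997 probes, quantile-normalized so that every array has the same distribution. They are therefore relative to the other probes of the array, and in a piece of colon wall fewer cells of a type and less RNA per cell cannot be told apart. The median raw intensity of an array ranged from 214 to 594, between 73.8% and 87.6% of its spots were well above background, and none was saturated. S2 stood apart from its group. It correlated with the congenic arrays at 0.967 to 0.976 across probes, with S1 at 0.900 and with S3 at 0.937, while S1 and S3 correlated at 0.980. Each main result is therefore given with and without S2, and values of a strain are listed in the order of rat number, C1 to C3 and S1 to S3. Scan times put C1 and all 3 S rats in 1 group, called slide 1 here, and C2 and C3 in another, called slide 2. That these groups are slides was taken from the scan time alone. With the slide as a block only C1 represents the congenic rats beside the S rats.

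Strain differences were tested with limma on all 23997 probes, and a probe was called at an unadjusted p under 0.05 together with a 2-fold change. Among the collagens only the transmembrane members Col23a1 and Col13a1 were called, both higher in the congenic rats. That is 2 of 23 collagen probes (8.7%), against 776 of all probes (3.23%). In the other direction 0 of 23 collagen probes were called, against 562 of all probes (2.34%). At an unadjusted p under 0.05 alone, limma gave 3 collagen probes higher (8.58% of all probes), Col23a1, Col13a1 and Col4a4, and 0 lower (4.4% of all probes). After Benjamini-Hochberg adjustment over all probes no probe, collagen or other, reached 0.05 by limma with equal weight on every array or by the methods' t-test. At the stricter cut-offs of 0.005 and 2.5-fold Col23a1 alone remained called, against 0.704% of all probes. The log2 fold change was above 0 at 19 of 23 collagen probes, against 51.3% of all probes, and its median was 0.36 over the collagen probes and 0.01 over all probes. Without S1 it was above 0 at 13 of 23, against 50.4% of all probes, and the collagen median was 0.06. Without S2 it was above 0 at 20 of 23, against 53.1% of all probes, and the collagen median was 0.64.

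Col23a1 encodes the chain of a collagen that crosses the cell membrane once and can be shed from it. C1, C2 and C3 had log2 signals of 6.47, 6.72 and 6.71, and S1, S2 and S3 had 4.83, 5.88 and 5.19. Every congenic rat lay above every S rat, with S2 the nearest of the S rats. The means were 6.63 ± 0.14 (SD, n = 3) and 5.30 ± 0.53 (SD, n = 3), a log2 fold change of 1.33 (SE 0.30, adjusted p = 0.247 from limma), or 2.52-fold. The exact permutation test, two-sided, gave 0.10, the smallest p that 3 rats against 3 allow. Leaving out S2 raised the log2 fold change to 1.62 with an adjusted p of 0.00818 from limma, and leaving out any other rat gave 1.1 to 1.41. The log2 fold change was 1.17 with the slide as a block and 0.61 after normexp background correction of the raw intensities. All these values are of the kept probe. The other Col23a1 probe, not kept, was well above background on 0 congenic arrays and 1 S array. Without S2, the S array nearest the congenic arrays, 12.5% of all probes were higher and 10.6% lower at an adjusted p under 0.05. With all rats 0 were. Adjusted p-values without S2, here and below, are therefore no separate support for a gene.

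Col13a1 encodes another membrane-spanning collagen, found where cells attach to their matrix. The log2 signals were 5.49, 5.79 and 5.51 for the congenic rats against 4.88, 4.59 and 4.21 for S1, S2 and S3. The strains did not overlap here either, and S2 lay between the other S rats. The means were 5.60 ± 0.17 (SD, n = 3) and 4.56 ± 0.34 (SD, n = 3), a log2 fold change of 1.04 (SE 0.23, adjusted p = 0.247 from limma), or 2.05-fold. C2 lay near the floor of its array, where 5.62 was the lowest log2 signal of any probe well above background. The call lay close to the 2-fold line. Its log2 fold change was 0.94 without C2, 0.86 without S3, 0.94 with the slide as a block, 0.85 after scaling to the 75th percentile and 0.28 after normexp, all under 1, while without S2 it was 1.05 (adjusted p = 0.0378 from limma).

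**Figure D1:**
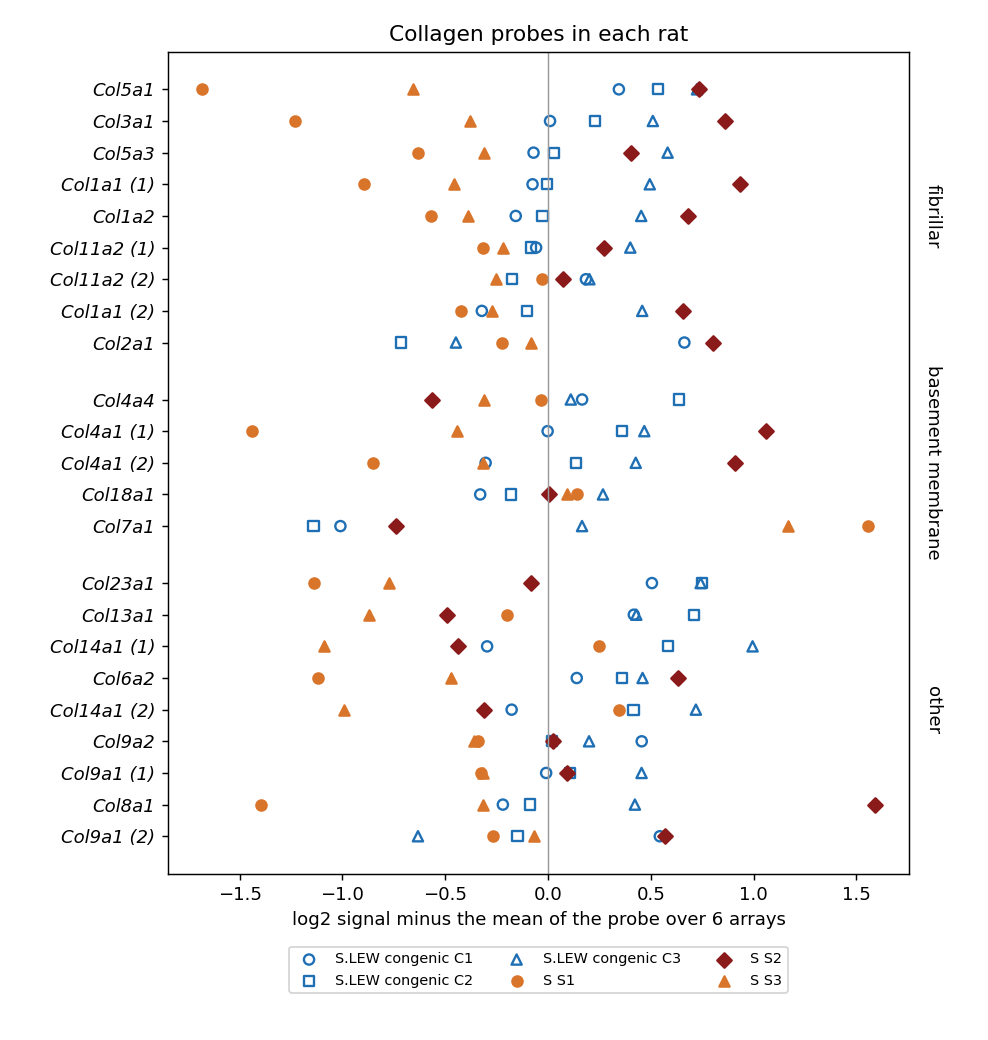
Each row is 1 of the 23 kept collagen probes, and the horizontal axis is the log2 signal of a rat minus the mean of that probe over the 6 arrays. Open blue symbols are congenic rats, filled symbols are S rats with S2 as a dark red diamond, and bracketed numbers tell apart probes of 1 gene, in order of fold change within each class. S2 is the highest S rat at all 9 fibrillar probes, and all congenic rats stand above all S rats at Col4a4, Col23a1 and Col13a1.

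All congenic rats lay above all S rats at 3 of the 23 collagen probes, against 12.4% of all probes, and at 0 collagen probes did they all lie below, against 5.33%. Beside Col23a1 and Col13a1 this held for Col4a4, a chain of the type IV network best known from the kidney glomerulus. Its log2 signal was 4.90, 5.37 and 4.84 in the congenic rats and 4.70, 4.17 and 4.42 in the S rats. Its strain difference was a log2 fold change of 0.61 (SE 0.24, adjusted p = 0.372 from limma). The probe was well above background on only 1 congenic array and 2 S arrays, and the difference passed an unadjusted 0.05 neither after scaling to the 75th percentile nor without S2.

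The fibrillar chains had no called probe. Their 9 probes had a median log2 fold change of 0.18, from -0.33 at Col2a1 to 1.07 at Col5a1, and 8 of the 9 lay above 0. The S rats lay far apart in this class. The median deviation of its probes from their own mean was -0.06, -0.03 and 0.46 in C1, C2 and C3, and -0.57, 0.68 and -0.31 in S1, S2 and S3. Without S2 the class median was 0.57, and without S1 it was 0.01, so that either rat decides the size of the value.

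Col5a1 encodes the main chain of type V collagen, which starts the growth of type I fibrils. Its log2 signal was 11.65, 11.84 and 12.03 in the congenic rats, against 9.62, 12.04 and 10.65 in the S rats. S2 was level with the highest congenic rat, while S1 and S3 were below all of them. The log2 fold change over all rats was 1.07 (SE 0.58, adjusted p = 0.449 from limma, 95% interval -0.33 to 2.47), which is past 2-fold without passing the test. Without S2 it was 1.71 (SE 0.33, adjusted p = 0.0252 from limma).

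Col3a1 encodes type III collagen, the fine fibers of stretchable organs such as gut and vessels. It read 14.26, 14.48 and 14.76 in the congenic rats, against 13.02, 15.11 and 13.87 in the S rats. The congenic rats thus lay between S2 above and the other S rats below. Its log2 fold change was 0.50 (SE 0.52, adjusted p = 0.646 from limma), and without S2 it was 1.06 (adjusted p = 0.0601 from limma). Col5a3, a minor chain of type V, had a log2 fold change of 0.36 (95% interval -0.43 to 1.15).

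Type I collagen, the bulk fiber of most connective tissue, is made of the chains Col1a1 and Col1a2. The brighter Col1a1 probe read 11.53, 11.60 and 12.10 in the congenic rats, against 10.71, 12.54 and 11.15 in the S rats. Col1a2 read 13.14, 13.27 and 13.75 against 12.73, 13.98 and 12.91 in the same order. S2 was the highest of the 6 rats and S1 the lowest at both. The log2 fold changes were 0.28 (95% interval -0.89 to 1.45) for Col1a1 and 0.18 (95% interval -0.72 to 1.08) for Col1a2, and a second Col1a1 probe gave 0.02. Without S2 they were 0.82 and 0.57, with adjusted p-values of 0.0689 and 0.127 from limma.

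The chains of cartilage fibrils behaved less uniformly. Col2a1, the type II chain of cartilage, was the lowest-ranked fibrillar probe by fold change. Its log2 signal was 8.00, 6.62 and 6.88 in C1, C2 and C3 and 7.11, 8.13 and 7.25 in S1, S2 and S3. C1 and S2 were the high rats, 1 from each strain, and the log2 fold change was -0.33 (95% interval -1.41 to 0.74). Both probes of Col11a2, a chain that regulates cartilage fibrils, differed little between the strains, with log2 fold changes of 0.17 and 0.14.

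**Figure D2:**
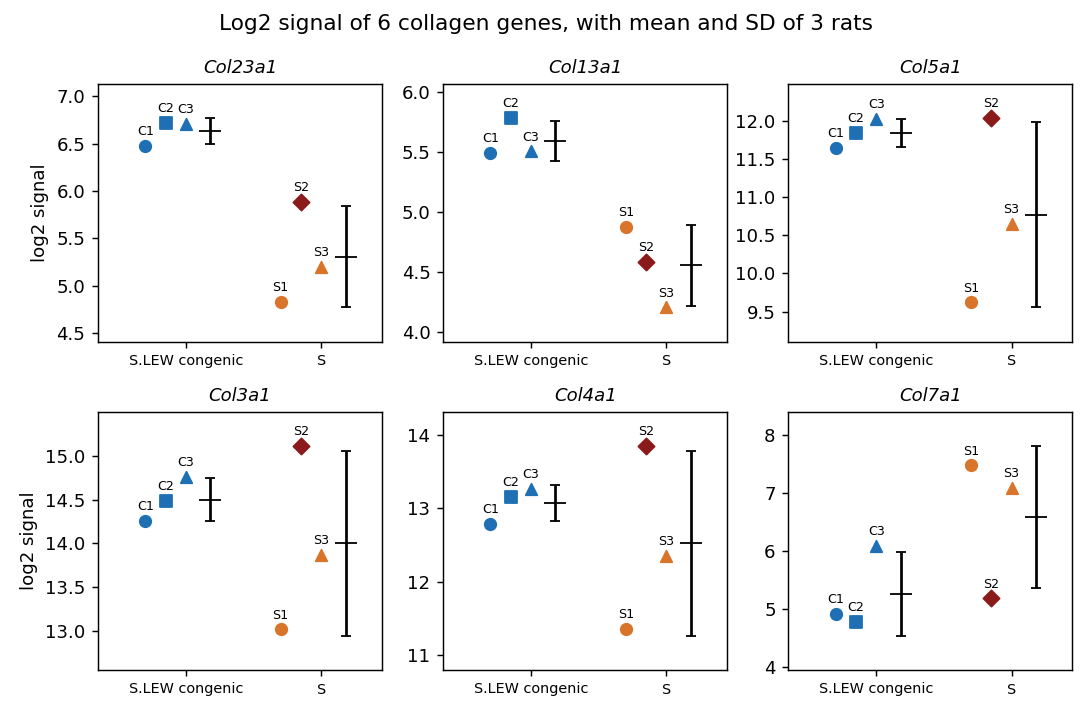
Log2 signal of 6 collagen genes in each rat, with congenic rats in blue and S rats in orange and dark red, and beside them the mean and SD of 3 rats. Each panel has its own vertical axis, which does not start at 0. The strains are apart for Col23a1 and Col13a1, S2 is at or above the congenic rats for Col5a1, Col3a1 and Col4a1, and it is among the congenic rats for Col7a1.

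Basement membrane chains had no called probe either, and the median of their 5 probes was 0.17. This class held values of both signs, from -1.32 at Col7a1 to 0.61 at Col4a4. The 3 type IV probes, of only Col4a1 and Col4a4, had a median of 0.55. Their median was -0.03 without S1 and 0.28 with the slide as a block. The median of the whole class turned to -0.13 without S1 and to -0.22 with the slide as a block, and it was 0.48 without S2.

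Col4a1 is a chain of the type IV collagen found in nearly all basement membranes. Its brighter probe read 12.79, 13.15 and 13.26 in the congenic rats, against 11.35, 13.85 and 12.35 in the S rats. S2 was again the highest rat and S1 the lowest, 2.5 apart on the log2 scale, against a range of 0.46 among the congenic rats. The log2 fold change was 0.55 (SE 0.61, adjusted p = 0.665 from limma), and it was 1.22 (adjusted p = 0.0540 from limma) without S2 and -0.03 without S1. A second, dimmer probe read 8.21, 8.65 and 8.94 against 7.67, 9.43 and 8.20, with the same order of S rats and a log2 fold change of 0.17.

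Col7a1 encodes type VII collagen, which forms the anchoring fibrils beneath stratified epithelium. It read 4.92, 4.79 and 6.09 in the congenic rats, against 7.48, 5.19 and 7.09 in the S rats. Here S1 and S3 were the high rats, and S2 lay within the congenic range, the opposite of the order at Col5a1 and Col4a1. The log2 fold change was -1.32 (SE 0.67, adjusted p = 0.426 from limma, 95% interval -2.93 to 0.29), and without S2 it was -2.02 (adjusted p = 0.0308 from limma). Of the congenic arrays 2 were well above background for this probe, and all 3 S arrays were.

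Col18a1, the type XVIII proteoglycan of basement membranes and the source of endostatin, had a small strain difference. Its log2 signal was 9.37, 9.52 and 9.97 in the congenic rats and 9.84, 9.71 and 9.79 in the S rats. The S rats lay within 0.14 of each other and inside the congenic range, and the log2 fold change was -0.16 (95% interval -0.67 to 0.35).

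**Figure D3:**
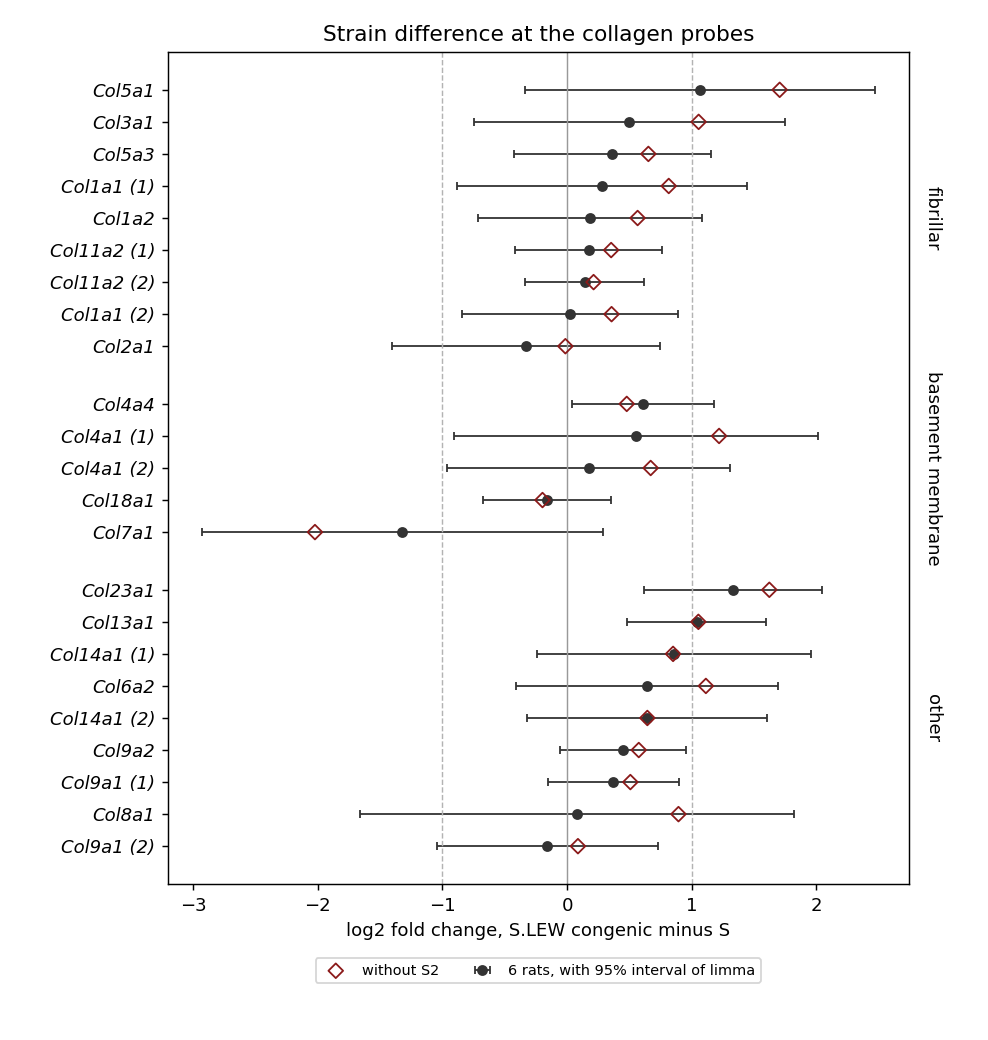
Log2 fold change of each kept collagen probe, S.LEW congenic minus S, as filled points with the 95% interval from limma over 6 rats, and as open diamonds without S2. Dashed lines mark 2-fold. The intervals of Col23a1, Col13a1 and Col4a4 leave out 0, and leaving out S2 moves Col3a1, Col4a1 and Col6a2 past 2-fold to the right, Col5a1 further to the right and Col7a1 further to the left.

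Among the other collagens the median of 9 probes was 0.64, and 8 of the 9 lay above 0. Col6a2, a chain of the beaded filaments of type VI collagen, read 13.56, 13.78 and 13.88 in the congenic rats, against 12.30, 14.05 and 12.95 in the S rats. It repeated the order seen at Col3a1, with S2 above all congenic rats and the other S rats below. On the log2 scale the fold change was 0.64 (SE 0.44, adjusted p = 0.513 from limma), and without S2 it was 1.11 (adjusted p = 0.0315 from limma).

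Col8a1, a short-chain collagen of vessel walls, had the widest range among S rats of any collagen probe. It read 8.44, 8.57 and 9.08 in the congenic rats, against 7.26, 10.25 and 8.34 in the S rats. The S rats spanned 2.98 on the log2 scale, while the strain means differed by 0.08 (SE 0.72). The log2 fold change was 0.89 without S2 and -0.60 without S1, so that its direction turned with the rat left out.

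Col14a1 lies on the surface of type I fibrils, and its probes did not share the order of the fibrillar chains. The brighter read 9.01, 9.60 and 9.90 in the congenic rats, against 9.53, 8.87 and 8.19 in the S rats. S1 was the highest S rat here and S3 the lowest, and the strains overlapped. Fold changes on the log2 scale were 0.64 and 0.86 for the brighter and the dimmer probe, with adjusted p-values of 0.489 and 0.442 from limma. The dimmer probe passed the unadjusted cut-offs without C1, at 1.22, and without S1, at 1.19. With the slide as a block the brighter probe fell to 0.14 and the dimmer to 0.13, and without S2 they were 0.64 and 0.85.

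Type IX collagen decorates cartilage fibrils. Its chain Col9a2 had a log2 fold change of 0.45 (95% interval -0.05 to 0.95), and the pair of Col9a1 probes gave -0.16 and 0.37. The dimmer of that pair was well above background on 2 congenic and 3 S arrays. Differences between probes of 1 gene ran from 0.03 on the log2 scale for Col11a2 to 0.53 for Col9a1, where the sign also differed.

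The S rats were spread widely at most collagen probes. S2 was the highest of all 6 rats at 11 of 23 collagen probes (18.1% of all probes), and S1 was the lowest of all 6 at 13 (28.0% of all probes). Among S rats alone S2 was the highest at 17 of 23, against 47.5% of all probes. The S rats ranged over at least 1 log2 unit at 15 of 23 collagen probes (31.8% of all probes), and the congenic rats did so at 4 (14.0% of all probes). At 8 of 23 probes S2 lay above every congenic rat while S1 and S3 lay below every one of them, an order found at 7.46% of all probes. The SD was larger in the S rats at 16 of 23 collagen probes, a share close to the 70.8% of all probes. Within the congenic strain C3 was the highest rat at 17 of 23, against 34.3% of all probes.

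Leaving out S2 changed the number of calls more than leaving out any other rat. Without it, limma called 6 collagen probes higher, against 9.99% of all probes, namely Col23a1, Col13a1, Col5a1, Col3a1, Col4a1 and Col6a2. It called 1 lower, Col7a1, against 7.19% of all probes. At an adjusted p under 0.05 Col23a1, Col13a1, Col5a1 and Col6a2 were higher, against 12.5% of all probes, and Col7a1 was lower, against 10.6%. At 15 of 23 probes all congenic rats then lay above both remaining S rats, against 32.3% of all probes. With limma's array weights, which set S2 at 0.159, S3 at 4.9 and the other rats between 0.742 and 1.57, 5 collagen probes were called higher (8.33% of all probes), those of Col23a1, Col13a1 and Col5a1 and both of Col14a1, and Col7a1 was called lower (6.87% of all probes). At an adjusted p under 0.05 that fit gave 9 collagen probes higher (20.1% of all probes) and 1 lower (15.5% of all probes). Leaving out C2 or S3 removed the call of Col13a1 and left 1 collagen probe called.

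Markers of the cells of the colon wall were read on the same arrays, with 1 probe per gene. The tissue label was borne out by epithelial markers such as Lgals4 and Krt19, since all 9 of the 11 listed that were tested were well above background on all 6 arrays. They deviated on average by 0.70, 0.49 and 0.12 in C1, C2 and C3 and by -0.57, -0.32 and -0.43 in S1, S2 and S3. All 9 had a log2 fold change above 0, with a median of 0.89, and the list mean ran from 13.51 to 14.09 in congenic and from 12.82 to 13.07 in S rats. Of those 9, 2 were called higher in the congenic rats, against 3.79% of all genes, as many as without S2, against 11.3%. With the slide as a block 5 were, against 2.66% of all genes. Smooth muscle genes such as Actg2 and Myh11 followed the order of the fibrillar chains. Their 8 of 8 tested genes deviated on average by 0.41, 0.43 and 0.64 in C1, C2 and C3 and by -1.60, 0.74 and -0.61 in S1, S2 and S3. The list mean of log2 signals lay between 15.38 and 15.62 in congenic rats and between 13.37 and 15.71 in S rats. Of the 8 genes 1 was called higher (3.79% of all genes), 6 without S2 (11.3% of all genes) and 0 with the slide as a block (2.66% of all genes).

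The mean of fibroblast markers such as Vim and Pdgfra moved less than that of smooth muscle. The 9 tested genes of 10 deviated on average by -0.06, 0.01 and 0.52 in C1, C2 and C3 and by -0.35, 0.03 and -0.15 in S1, S2 and S3. Single genes went both ways, from a log2 fold change of -0.38 at Vim to 0.83 at Pi16. Of the 9, 6 lay above 0, with a median of 0.22. All congenic rats lay above all S rats at Pi16 and Mfap5, an order found at 12.4% of all probes. Calls were 0 with all rats and with the slide as a block, and 2 genes were called higher without S2 (11.3% of all genes). The list mean ran from 9.02 to 9.60 in congenic and from 8.73 to 9.11 in S rats. Lymphoid markers such as Cd3d and Cd3g showed S1 and S3 apart from all other rats, at average deviations of 3.93 and 3.57 against -1.92 in S2 and -1.95, -1.75 and -1.89 in the congenic rats. Of 11 listed lymphoid genes 6 were tested, 5 were well above background on all arrays and 5 were called lower in the congenic strain, against 2.62% of all genes. Without S2 all 6 were called lower (8.27% of all genes), and with the slide as a block 0 were (1.02% of all genes). Ccl19 was called lower though it was well above background on only 1 congenic array and on 3 S arrays. It met the filter through the S arrays, so its lower calls are no separate support. The list mean ran from 6.84 to 7.05 in congenic and from 6.88 to 12.73 in S rats. The part of these cell types in the collagen values was not tested.

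The remaining marker lists had these calls. Endothelial genes (7 of 8 tested), enteric glia and Schwann cell genes (6 of 7) and stratified squamous genes (4 of 11) had 0 calls in either direction with all rats. Without S2 1 endothelial gene was called lower and 1 glial gene in each direction, against 8.27% of all genes lower and 11.3% higher. Adipocyte genes had 2 of 6 called higher (3.79% of all genes), also without S2 (11.3% of all genes). With the slide as a block 0 were (2.66% of all genes). Striated muscle genes had 3 of 7 called lower (2.62% of all genes), also with the slide as a block (1.02% of all genes). Among those called with all rats, Myh1 and Mybpc1 were well above background on 0 congenic and 3 S arrays. They passed the filter only through the S arrays, so their lower calls are no separate support. Without S2 4 genes of that list were lower (8.27% of all genes) and 1 higher (11.3% of all genes). The squamous list deviated by -0.74, 0.43 and 0.12 in S1, S2 and S3 and by 0.17, -0.13 and 0.16 in the congenic rats, and so did not share the order of Col7a1, in which S1 and S3 were high. S1 was its lowest rat and S2 its highest, as for the fibrillar chains and smooth muscle. The glial list had that order too. It deviated by -0.53, 0.41 and -0.21 in S1, S2 and S3 and by 0.10, -0.08 and 0.32 in C1, C2 and C3.

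**Figure D4:**
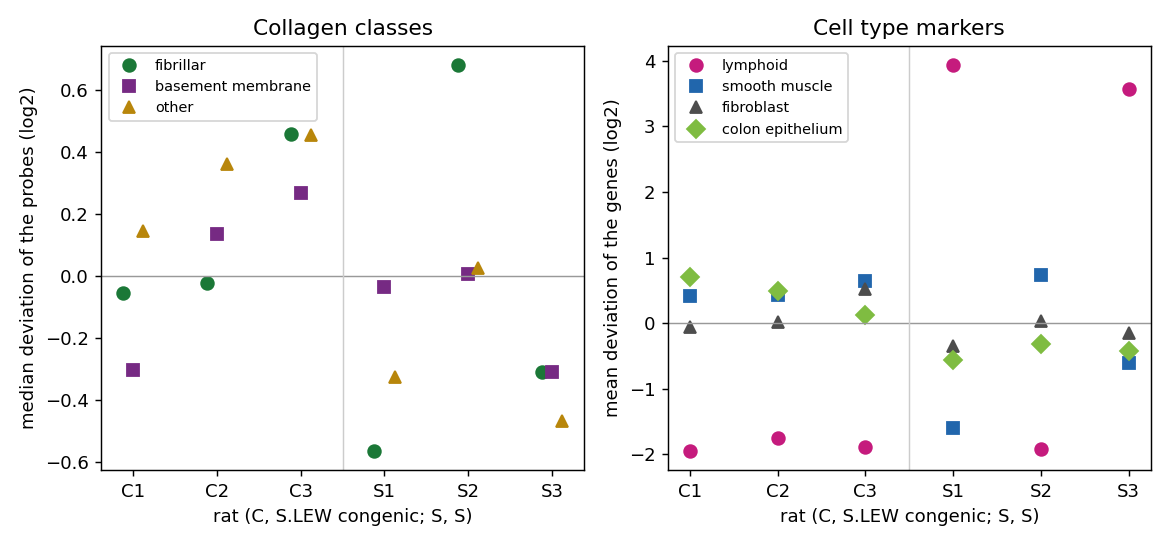
Left, the median over the probes of each collagen class of the log2 signal minus the mean of the probe over 6 arrays, for each rat. Right, the mean of the same deviation over the genes of 4 marker lists, on a wider vertical axis. S1 is lowest and S2 highest for both the fibrillar chains and smooth muscle, and S1 and S3 alone are high for lymphoid genes.

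The enzymes, receptors and partners of collagen were taken as 7 lists with 62 of 87 genes tested. At the same cut-offs 1 gene was called higher (3.79% of all genes) and 1 lower (2.62% of all genes). The first was Aspn, asporin, a small leucine-rich proteoglycan that binds type I collagen. It read 10.47, 10.93 and 11.23 in the congenic rats, against 7.78, 9.71 and 8.51 in the S rats. The strains did not overlap, and the log2 fold change was 2.21 (SE 0.50, adjusted p = 0.255 from limma). It was 2.74 without S2 and 1.77 without S1, and with the slide as a block it was 1.81 with an unadjusted p of 0.0561 from limma.

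The other was Tgfb1, the growth factor best known for inducing collagen synthesis. Its log2 signal was 5.65, 6.10 and 6.45 in the congenic rats, against 8.87, 6.10 and 8.52 in the S rats. S2 lay within the congenic range and the other S rats above it, the same rats in which lymphoid markers were high. The log2 fold change was -1.76 (SE 0.73, adjusted p = 0.384 from limma), and without S2 it was -2.63. The call was lost on leaving out any rat other than S2.

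The 17 tested genes for collagen modification, folding and secretion had 0 calls and a median log2 fold change of 0.23, and 13 lay above 0. The 9 genes for procollagen cleavage and cross-linking had 0 calls and a median of 0.27. Among 6 collagen receptors 0 were called, with a median of 0.72. The 12 small leucine-rich proteoglycans and fibril partners, Aspn among them, had a median of 0.51, and 9 lay above 0. The 8 laminins, nidogens and basement membrane proteoglycans had a median of 0.25 and 0 calls, and the 5 hemidesmosome genes a median of 0.30 and 0 calls. Of 7 TGF-beta ligands and receptors 3 lay above 0, with a median of -0.15. A pair of genes stands in 2 of these lists.

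In the pathway genes, too, S2 decided how many were called. Without it 15 of the 62 genes were called higher, against 11.3% of all genes, and 1 lower, against 8.27%. The 15 included 4 of the collagen receptors and 4 of the small leucine-rich proteoglycans and fibril partners. The list mean of every one of the 7 lists was lowest in S1 among the S rats, except the hemidesmosome genes, where S3 lay lowest.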

How the data were processed

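Colon RNA of 3 S.LEW congenic and 3 S rats was measured, grouped by the sample labels. The authors scanned 1 Cy3 array per rat and extracted the images with Agilent Feature Extraction 11.0.1.1, and the deposited scanner files give spot intensity, background-corrected but not normalized between arrays. GeneSpring was used by the authors for quantile normalization and for a filter on detection in 3 or more of 6 samples, which gave the deposited log2 values of 23997 probes. The scale was checked by quantile-normalizing the scanner signal, which correlated with each column at 0.9999 or more. Because signals are forced to 1 distribution, a value is relative.

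Probe accessions were looked up among the RefSeq genes of GRCr8 (18005 of 30367 probes, 15168 genes), and the promoter table covered 13 of the 18 collagen genes. Strains were tested by limma 3.58.1 under R 4.3.3 with lmFit and eBayes and without covariates, and p-values were adjusted by Benjamini-Hochberg over every probe of the table. The precision is limited by the 3 arrays per strain. On simulated data, in which 200 of 23997 probes were shifted by 2 on the log2 scale, limma found 71% of them at an adjusted p under 0.05 with the spread of the congenic arrays (6 false calls) and 59% with that of each strain (22 false calls). The noise was drawn for each probe separately, so no array stood apart across probes as S2 did. The shift also exceeded every collagen log2 fold change, which ran from -1.32 to 1.33. These shares therefore do not give the power for the collagen probes. Alternatives were the scanner signal, quantile-normalized or scaled to the 75th percentile, other background filters, the methods' t-test, the replicate number or slide as a block, array weights, stricter cut-offs, 1 probe per gene, type IV alone, and leaving out each rat. Chosen after seeing the data was normexp (offset 50) on the median signal, as the mean signal was not at hand. The members and the 7 pathway and 9 marker lists were chosen with earlier results of these data known. The genes named are the called collagens, the common colon collagens, the extremes of each class, called pathway genes and the brightest markers, while Col4a4, Col5a3, Col8a1, Col9a1, Col9a2, Col11a2 and Col14a1 were added after their values were seen. Plots were drawn with matplotlib 3.10.9.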

Additional observations from a re-analysis of the deposited data

How the results depend on the processing

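The number of collagen probes called higher (2) was 1 after scaling to the 75th percentile, with the slide as a block and at the stricter cut-offs, 0 after normexp and at an adjusted p under 0.05, 5 with array weights, and 1 to 6 on leaving out a rat. None was called lower, except 1 with the replicate number as a block, with array weights and without S2, the range on leaving out a rat being 0 to 1. The fibrillar median of 0.18 ran from 0.01 to 0.57 on leaving out a rat. The basement membrane median of 0.17 was -0.22 with the slide as a block, 0.42 with array weights, 0.55 for type IV alone and -0.13 to 0.48 on leaving out a rat. The median of the other collagens, 0.64, was 0.33 after normexp and 0.38 to 0.85 on leaving out a rat. Pathway genes called higher (1) were 2 after scaling to the 75th percentile, after normexp, with the filter on all 6 arrays and with the replicate block, 0 with the slide as a block, 8 with array weights, and 1 to 15 on leaving out a rat. Those called lower (1) were 0 with no filter, by the methods' t-test and with the slide as a block, and 0 to 1 on leaving out a rat. Over single collagen probes, 308 of 342 settings kept the side of an unadjusted 0.05, and no probe that passed it changed sign. The causes were not tested. Rats with the same replicate number showed no shared deviation from the strain means, with correlations of -0.02, -0.13 and -0.06. With 3 rats per strain this cannot tell whether such rats shared a cage. With the replicate block 2 collagen probes were called higher and 1, Col7a1, lower, and over all probes 794 and 744, against 776 and 562. Over all probes, higher and lower calls were 359 and 381 after normexp, 692 and 759 at the 75th percentile, 515 and 178 by the methods' t-test, 551 and 227 with the slide as a block, 2000 and 1649 with array weights, 2397 and 1725 without S2 and 477 and 192 without S3. The array weights were estimated gene by gene, a choice made after seeing the data, since limma's default REML estimate stopped before it converged. Dim probes limit what can be read for Col4a4, Col7a1, Col13a1 and Col23a1. The lowest log2 signal of any probe well above background was 4.50, 5.62 and 5.01 in C1, C2 and C3. It was 3.62, 4.13 and 3.44 in S1, S2 and S3. This floor was thus higher on each congenic array than on any S array, and its part in the calls of Col23a1 and Col13a1 was not tested.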
